A study of Mus musculus with 6 samples.

Results

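Lymphatic endothelial cells (LECs) line the lymphatic vessels, and 30 genes of DNA replication and mitosis were followed here in LECs cut from tumours and from healthy skin. The genes were taken as a fixed list by symbol: 8 belong to replication and its control at the start of S phase, and 22 to mitosis. Of the 30 genes, 29 had at least 1 probe set that names that gene alone, with 68 probe sets in all, out of 18193 genes and 45037 probe sets on the arrays. No such probe set was found for Ccnb1, which encodes cyclin B1. The tested samples were 3 arrays of LECs from subcutaneous xenografts of MDA-MB-435 cells, a human line once held to be of breast cancer and since linked to a melanoma, taken 8 weeks after injection. The others were 3 arrays of LECs from mammary skin, healthy, of balb-c/nude mice, which lack a working thymus. LECs of both groups were marked by a short LYVE-1 stain and cut from sections by laser capture microdissection, and their RNA went through 1 round of Ribo-SPIA amplification. The labels number the samples as biological replicates but name no animals, so the p-values measure the spread between these samples, which may be technical. The capture follows a stain and a cut area, so cells that touch a vessel can be in a sample too. In the tumours these can include the injected human cells. The part of their RNA in the signal of the mouse probe sets was not tested. In such captures a difference in the RNA of a cell and a difference in the share of cells of that kind cannot be told apart.

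A cell that divides first copies its DNA in S phase and then separates the copies in mitosis. The genes for each step are switched on for that step and are off or low in resting cells, so their transcripts are widely used to read how many cells of a tissue are cycling. Endothelium of adult vessels is mostly quiescent, and lymphatic vessels that grow around tumours do so partly by division of their endothelial cells. Transcription of the replication genes depends on E2F factors. That of the mitosis genes depends on the DREAM and MuvB complexes, which bind a short element called CHR (cell cycle genes homology region), often with CCAAT boxes bound by NF-Y nearby, and on the factor FOXM1.

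Many of the promoters held matches to these elements. The 4 printed are of genes that were among those with the smallest p of the 29 and held at least 1 match. Nusap1, the gene of smallest p, held no match, nor did E2f1 or Tyms. RefSeq promoters (GRCm38.p6) were found for 25 of the 30 genes, 26 promoters in all, and were searched over the 250 bases before the start on both strands. The letters searched were CCAAT for the CCAAT box, TTTGAA or TTTAAA for CHR, and TTTNNCGC for an E2F site. Matches are in capitals:
Ccnb2, chr9:70421555-70421804, minus strand: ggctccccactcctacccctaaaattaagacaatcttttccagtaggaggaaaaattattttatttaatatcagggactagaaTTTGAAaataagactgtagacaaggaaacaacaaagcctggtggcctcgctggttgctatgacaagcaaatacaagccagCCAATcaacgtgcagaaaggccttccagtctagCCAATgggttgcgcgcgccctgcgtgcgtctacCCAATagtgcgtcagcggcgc
Cdc20, chr4:118437344-118437593, minus strand: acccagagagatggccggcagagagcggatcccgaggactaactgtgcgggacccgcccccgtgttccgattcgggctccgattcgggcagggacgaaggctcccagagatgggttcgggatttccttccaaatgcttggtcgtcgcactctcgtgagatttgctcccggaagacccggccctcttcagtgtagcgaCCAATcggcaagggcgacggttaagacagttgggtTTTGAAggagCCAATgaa
Mcm5, chr8:75109259-75109508, plus strand: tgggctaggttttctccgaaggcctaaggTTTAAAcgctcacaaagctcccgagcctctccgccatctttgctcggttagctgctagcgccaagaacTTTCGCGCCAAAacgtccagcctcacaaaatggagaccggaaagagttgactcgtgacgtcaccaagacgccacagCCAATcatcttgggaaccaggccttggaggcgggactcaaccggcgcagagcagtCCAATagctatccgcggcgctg
Mki67, chr7:135716380-135716629, minus strand: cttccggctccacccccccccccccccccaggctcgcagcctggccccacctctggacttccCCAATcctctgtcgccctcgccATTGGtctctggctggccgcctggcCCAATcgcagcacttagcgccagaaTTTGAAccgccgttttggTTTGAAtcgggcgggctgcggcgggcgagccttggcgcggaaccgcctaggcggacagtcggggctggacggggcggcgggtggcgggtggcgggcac
The Ccnb2 window held 3 CCAAT boxes near its start, and the Cdc20 window had 1 CHR match between 2 CCAAT boxes. In Mcm5 the long capital run is made of 2 overlapping E2F matches on opposite strands. A CCAAT box and a CHR match were both present, at any distance in the window, in 61.1% of 18 promoters of the mitosis genes. The share was 25% of 8 promoters of the replication genes, against 8.78% of all 32851 promoters. An E2F match was present in 5.56% of mitosis and 25% of replication promoters, against 4.28% of all. These are matches of letters in a fixed window and say nothing of whether a factor was bound in these cells.

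Markers of the labelled cell type were present. Of 9 measured LEC markers, 9, 9 and 9 were above background in replicates 1, 2 and 3 of the tumour-associated LECs and 8, 9 and 9 in those of the healthy-skin LECs. Background is taken as the level under which 95% of 27 bacterial control probe sets of the same array lie, which was 3.45, 3.42 and 3.91 on the tumour arrays and 3.81, 3.28 and 2.96 on the healthy ones (log2). Lyve1, the stained receptor, had 9.64, 9.41 and 9.65 (log2) in tumour-associated LECs, against 3.21, 7.58 and 6.81 in healthy-skin LECs. Healthy-skin replicate 1 was thus below its background for Lyve1. Of the 9 LEC markers, 8 had a higher mean in tumour-associated LECs and 1 a lower one, with a median difference of 0.95 (log2). All 12 pan-endothelial markers had a higher mean in tumour-associated LECs, and 11 of 12 keratinocyte markers a lower one. Of 8 melanocyte lineage markers, 4 had a higher and 4 a lower mean in tumour-associated LECs. Signal for the cell cycle genes stood above background for 25, 26 and 17 of the 29 genes on the tumour arrays and for 22, 25 and 26 on the healthy arrays. Tumour replicate 3, the array with the highest background, also had the fewest of all genes above it, 53.1%.

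None of the 68 probe sets of the cell cycle genes differed between tumour-associated and healthy-skin LECs at a limma adjusted p under 0.05. Their lowest adjusted p was 0.583. Over all probe sets limma called 2 of 45037, or 0.00444%, and over genes with 1 probe set each 1 of 18193, or 0.0055%. The count of 2 became 23 without tumour replicate 2 and 0 when any other array was left out, and in each of these fits 0 of the 68 were called. At an unadjusted p under 0.05 there were 3 of the 68, against 6.36% of all probe sets. With a gene represented by its probe set of highest mean, the same 3 were found among 29 genes, against 7.5% of all genes. They were Nusap1, Ccnb2 and Cdc20, which did not all go the same way. The values of the groups did not overlap for 5 of the 68 probe sets and for 4 of the 29 genes, against 11.1% of all probe sets and 11.9% of all genes.

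As a set the genes were balanced around zero. Of 29 differences (tumour-associated minus healthy-skin LECs, log2) 13 were positive and 16 negative, with a median of -0.05, against a median of 0.08 over all genes. The median was -0.05 for the 21 mitosis genes and -0.16 for the 8 replication genes. Its sign for the 29 genes turned when 1 of 3 arrays was left out, namely replicate 1 of healthy skin (0.04), replicate 2 of healthy skin (0.11) or replicate 3 of the tumours (0.01), and also with array weights (0.093). Few of these genes were measured closely enough to bound a change. The 95% interval of the difference lay within -1 and 1, which is a 2-fold difference either way, for 4 genes and reached beyond for the other 25. Of the 4, Plk1 and Cenpe were above background on all 6 arrays, Tpx2 was so on 3 of 6, and Bub1 on none, so that the interval of Bub1 bounds nothing. The median half-width of the interval was 1.11 for the 29 genes and 0.94 for all genes.

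**Figure D1:**
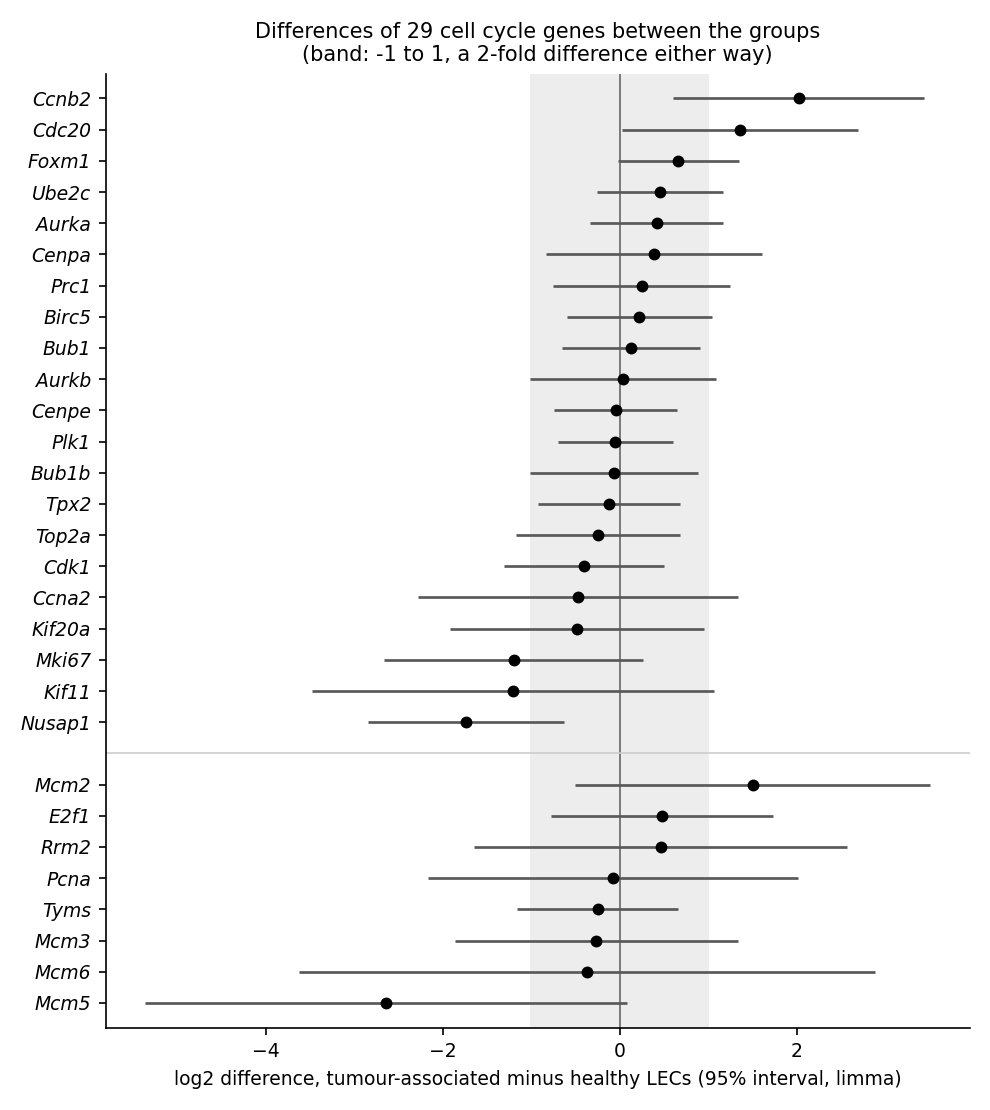
Differences between tumour-associated and healthy-skin LECs for 29 cell cycle genes (x axis, log2, tumour-associated minus healthy-skin LECs). Points are means of 3 arrays minus means of 3 arrays, bars the 95% limma intervals and the grey band -1 to 1. The points lie on both sides of 0, from -2.64 for Mcm5 to 2.02 for Ccnb2, and most bars leave the band.

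The 4 genes whose groups did not overlap were Ccnb2, Nusap1, Ube2c and Foxm1, all from the mitosis genes. Ccnb2, which encodes cyclin B2, a partner of CDK1 at entry into mitosis, had 3.74, 5.93 and 4.23 (log2) in replicates 1, 2 and 3 of the tumour-associated LECs, against 3.08, 2.60 and 2.16 in those of the healthy-skin LECs. All 3 tumour arrays were above background and all 3 healthy arrays were not. The measured means were 4.63 ± 1.15 and 2.61 ± 0.46 (SD, n = 3 each), a log2 difference of 2.02 with a standard error of 0.60 (limma adjusted p = 0.642). Since the healthy values lie below background, the signal in tumour-associated LECs was at least 2.43-fold higher, with each healthy array set to the lowest signal above its background. Without tumour replicate 2 this bound was 1.55-fold, and with log2(value + 16) the difference was 0.94. Ccnb2 had a single probe set, 1450920_at, so no other reading of it was at hand.

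Nusap1, which encodes a protein that bundles spindle microtubules, went the other way. On 1416309_at it had 2.53, 3.60 and 3.62 in tumour-associated LECs and 4.28, 5.56 and 5.12 in healthy-skin LECs. The groups did not overlap, and only tumour replicate 2 among the tumour arrays stood above its background. The difference was -1.74 (standard error 0.47, limma adjusted p = 0.583), and -0.90 with log2(value + 16). Its second probe set, 1416310_at, was below background on all arrays and differed by -0.41.

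Cdc20, which encodes an activator of the anaphase-promoting complex, had 6.30, 5.21 and 6.77 in tumour-associated LECs against 5.37, 5.02 and 3.81 in healthy-skin LECs on 1439394_x_at, with a difference of 1.36 (limma adjusted p = 0.778). Tumour replicate 2 lay inside the healthy range. Its other probe sets differed by 0.36 and -1.07. The suffix _x_at marks probe sets whose probes also match other transcripts. Ube2c, which encodes the ubiquitin-conjugating enzyme that works with that complex, had 4.95, 5.10 and 5.01 in tumour-associated LECs and 4.85, 4.72 and 4.12 in healthy-skin LECs. The groups did not overlap, but the gap between the nearest arrays was small and the difference was 0.46 (limma adjusted p = 0.868).

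Foxm1, which encodes the transcription factor of the mitosis genes, gave like differences on its 2 probe sets above background. On 1417748_x_at it had 6.17, 5.83 and 6.20 in tumour-associated LECs against 5.71, 5.36 and 5.15 in healthy-skin LECs, a difference of 0.66 (limma adjusted p = 0.794). On 1448833_at the values were 5.65, 5.03 and 5.13 against 4.97, 4.41 and 4.35, a difference of 0.69 (limma adjusted p = 0.812). On both, every tumour array was above every healthy array. The other 2 Foxm1 probe sets, both below background on all 6 arrays, differed by -0.06 and -0.03.

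Mki67, which encodes the proliferation antigen Ki-67, was above background on all 6 arrays. It had 6.79, 8.63 and 6.96 in tumour-associated LECs against 8.13, 8.29 and 9.55 in healthy-skin LECs (1426817_at). Tumour replicates 1 and 3 were below every healthy array and replicate 2 lay among them. The difference was -1.20 with a 95% interval of -2.66 to 0.26 (limma adjusted p = 0.843). On the same arrays the mean of the 12 keratinocyte markers was 5.69, 5.22 and 4.21 in tumour-associated LECs, against 6.90, 7.31 and 7.69 in healthy-skin LECs. All 12 were above background on at least 1 healthy array, and the basal keratin Krt5 of dividing epidermis was above it on all 6. Krt5 had 10.53, 9.02 and 6.50 in tumour-associated LECs against 10.74, 10.02 and 10.02 in healthy-skin LECs. Its groups overlapped, as did those of Krt14 and Krt15, and tumour replicate 1 lay inside the healthy range of Krt5. The largest difference of the list was -4.91, for Krt10. The part of keratinocyte RNA in the Mki67 signal was not tested.

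Cyclin-dependent kinase and cyclin A genes showed no separation of the groups. Cdk1, the kinase that drives mitosis, had 4.56, 4.19 and 4.85 in tumour-associated LECs against 4.56, 4.67 and 5.60 in healthy-skin LECs, a difference of -0.41 (limma adjusted p = 0.890). Ccna2, which encodes cyclin A2 of S phase and G2, had 6.45, 5.27 and 3.77 in tumour-associated LECs against 6.54, 4.69 and 5.66 in healthy-skin LECs. The spread within each group was larger than the difference of -0.47, and the second probe set had -0.60. Plk1, a kinase of centrosomes and spindle, had 4.24, 4.71 and 4.53 against 4.73, 4.48 and 4.42. Its difference of -0.05 had an interval of -0.70 to 0.60, the narrowest of the 29.

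The aurora kinases and their partners overlapped as well. Aurka, the centrosomal kinase, had 4.08, 3.95 and 3.50 in tumour-associated LECs against 3.03, 3.58 and 3.68 in healthy-skin LECs (difference 0.41, and -0.29 on a probe set below background on every array). Aurkb, the kinase of the chromosomal passenger complex, had 5.42, 4.44 and 4.80 against 5.58, 4.70 and 4.28 (0.04, and -0.05 on the other probe set). Birc5, which encodes survivin of the same complex, had 3.13, 4.17 and 3.37 in tumour-associated LECs against 3.28, 3.42 and 3.31 in healthy-skin LECs, above background on 1 tumour and 2 healthy arrays. The values of Tpx2, an activator of aurora A, were above it on as many arrays, with 3.56, 3.28 and 3.31 against 4.06, 3.06 and 3.41. Its 4 probe sets differed by -0.50 to 0.15.

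Checkpoint, kinetochore and motor genes gave no common direction. Bub1b, which encodes the checkpoint protein BUBR1, had 4.32, 5.38 and 4.70 in tumour-associated LECs against 4.76, 5.39 and 4.45 in healthy-skin LECs, and its 3 probe sets differed by -0.20 to 0.38. The checkpoint kinase gene Bub1 was below background on all 6 arrays on both of its probe sets, so its level was not measurable here. Cenpa, the histone H3 variant of centromeres, had 4.16, 2.89 and 2.82 in tumour-associated LECs against 2.80, 3.65 and 2.28 in healthy-skin LECs, and its 3 probe sets differed by -0.77 to 0.38. Cenpe, a kinetochore motor, had 4.63, 4.04 and 4.61 against 4.65, 4.35 and 4.42 (difference -0.05), while its dimmer probe set differed by -1.12 (limma adjusted p = 0.824). A single array decided the value of Kif11, the motor that separates the spindle poles. It had 2.90, 4.60 and 3.01 in tumour-associated LECs against 3.66, 3.62 and 6.86 in healthy-skin LECs, with a difference of -1.20 that was -0.13 without healthy-skin replicate 3. The other Kif11 probe sets differed by -0.13 and 0.02. Kif20a, a motor of cytokinesis, had 5.14, 5.21 and 6.05 in tumour-associated LECs against 6.56, 6.67 and 4.62 in healthy-skin LECs (difference -0.48). For Prc1, which bundles the central spindle, the values were 4.54, 4.03 and 5.0 against 4.46, 4.77 and 3.59 (difference 0.25). Top2a, the topoisomerase that untangles chromosomes, had 3.98, 3.88 and 4.47 against 3.98, 5.07 and 4.01, and its 3 probe sets differed by -0.24 to 0.08.

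**Figure D2:**
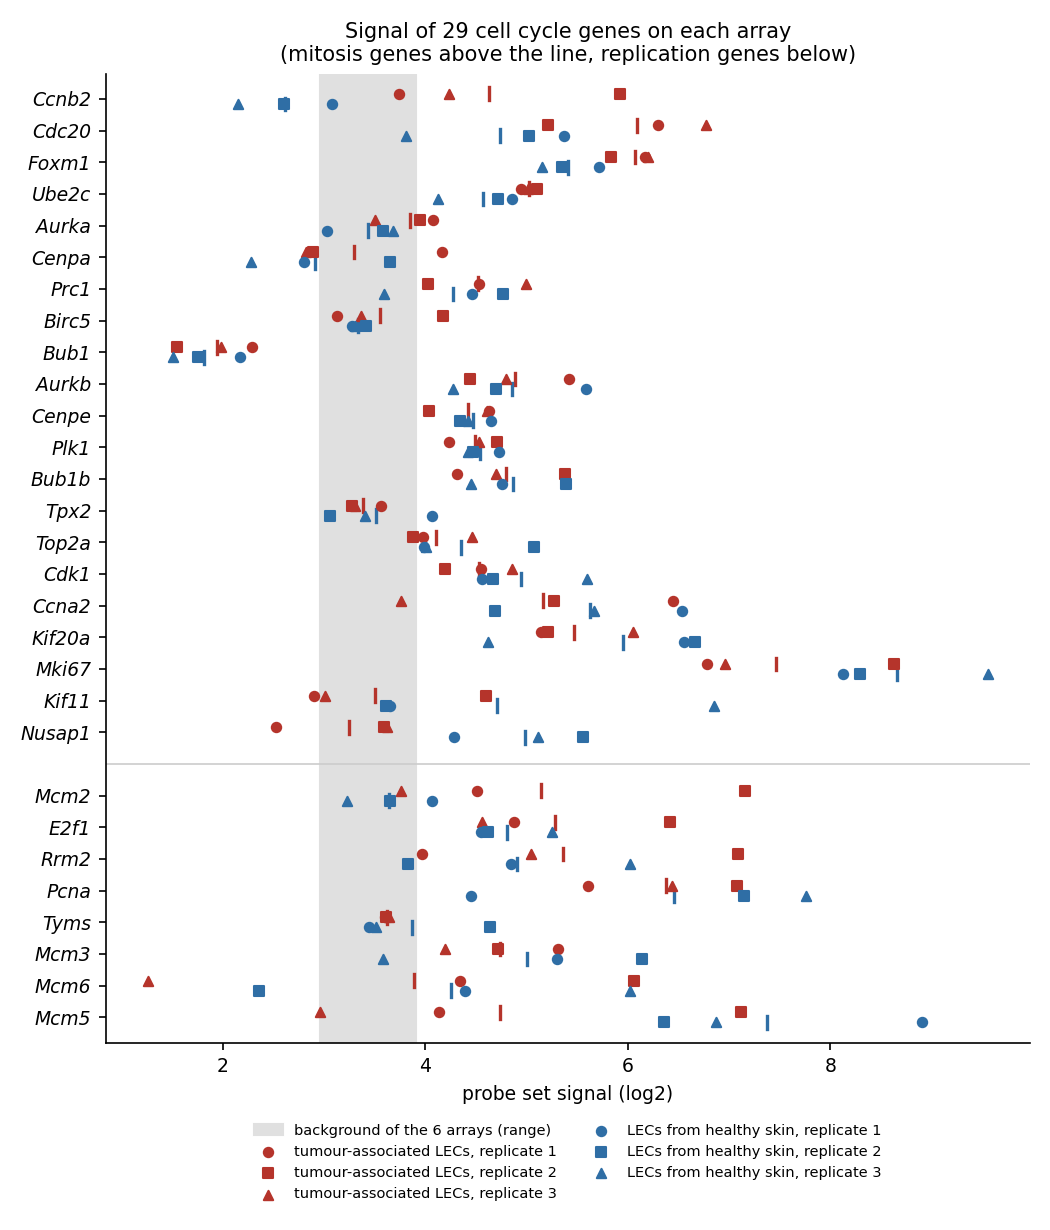
Signal (x axis, log2) of 29 cell cycle genes on 6 arrays, 1 probe set a gene. Red symbols are tumour-associated LECs, blue symbols healthy-skin LECs, the symbol shape gives the replicate, vertical ticks are group means and the grey band spans the background of the arrays, 2.96 to 3.91. Ccnb2 and Nusap1 show separated groups in opposite directions, and tumour replicate 2 (red squares) lies far right of the other tumour arrays for Mcm2, Mcm5, Rrm2 and E2f1.

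The average of the replication genes, which are fewer, moved more from array to array than that of the mitosis genes. Relative to the healthy mean, the 8 genes averaged -0.50, 1.12 and -1.06 in tumour replicates 1, 2 and 3 and -0.04, -0.20 and 0.24 in healthy-skin replicates 1, 2 and 3. The 21 mitosis genes averaged -0.03, 0.06 and -0.05 in the tumour replicates and 0.08, 0.04 and -0.12 in the healthy ones. Tumour replicate 2 was thus high for the average of the 8 replication genes and not for that of the 21 mitosis genes. Not each of the 8 was high there. Mcm3 (4.72, healthy mean 5.01), Mcm5 (7.12, healthy mean 7.38) and Tyms (3.62, healthy mean 3.87) were below their healthy means in that replicate. The 25 other replication genes that were measured averaged -0.40, 0.20 and -0.29 in the tumour replicates and -0.05, 0.08 and -0.03 in the healthy ones. Tumour replicate 2 was also the highest array for the 12 macrophage markers, at 2.26. These averaged 0.26 and 0.38 in tumour replicates 1 and 3 and -0.26 to 0.24 in healthy skin. Of the 12 macrophage markers, 10, 11 and 9 were above background in tumour replicates 1, 2 and 3. In healthy-skin replicates 1, 2 and 3 these counts were 8, 11 and 9. The pericyte and smooth muscle markers averaged 1.23 there, against 0.87 and -0.33 in tumour replicates 1 and 3. For the 8 fibroblast markers the averages were -0.03, 0.90 and -2.81 in the tumour replicates and -0.85, 1.34 and -0.49 in the healthy ones. The 3′ minus 5′ signal of the GAPDH control probe sets depends on RNA integrity and on amplification. It was 4.10 (log2) in tumour replicate 2, against 2.15 and 2.29 in tumour replicates 1 and 3 and 2.77 to 3.72 in healthy skin. The part of other cells, RNA quality or amplification in the replication genes was not tested. The height of the average of the 8 replication genes in tumour replicate 2 depended on the probe sets. With those ending in _x_at not used, an alternative chosen after seeing the data, the 8 genes averaged 0.52 in tumour replicate 2 and 0.51 in healthy-skin replicate 2.

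Among the subunits of the MCM helicase, which opens DNA for replication, Mcm2 and Mcm5 had the largest differences and opposite signs. Mcm2 had 4.51, 7.16 and 3.77 in tumour-associated LECs against 4.06, 3.65 and 3.22 in healthy-skin LECs on 1448777_at. Its difference of 1.50 (limma adjusted p = 0.861) was 0.49 without tumour replicate 2, and the second probe set had -0.48. Mcm5 had 4.13, 7.12 and 2.97 in tumour-associated LECs against 8.91, 6.36 and 6.87 in healthy-skin LECs on 1436808_x_at, a difference of -2.64 with an interval of -5.36 to 0.08 (limma adjusted p = 0.794). With 1 array left out it ran from -3.83, without tumour replicate 2, to -1.75, without tumour replicate 3. On its other probe sets it differed by -0.80 and 0.10. Mcm3 had 5.31, 4.72 and 4.20 against 5.31, 6.14 and 3.58, and its 5 probe sets ran from -1.01 to 0.65. The Mcm6 values of 4.34, 6.07 and 1.26 in tumour-associated LECs and 4.39, 2.36 and 6.03 in healthy-skin LECs spread more widely within each group than between the group means (difference -0.37). Its other probe sets differed by 0.34 and 0.23.

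The remaining replication genes overlapped too. Pcna, the sliding clamp of DNA polymerase, had 5.60, 7.08 and 6.44 in tumour-associated LECs against 4.45, 7.15 and 7.76 in healthy-skin LECs, a difference of -0.08 (limma adjusted p = 0.991). Rrm2, the small subunit of ribonucleotide reductase, had 3.97, 7.08 and 5.04 against 4.85, 3.83 and 6.02, and its 3 probe sets differed by -0.37 to 0.50. Tyms, the thymidylate synthase gene, had 3.60, 3.62 and 3.64 in tumour-associated LECs against 3.45, 4.64 and 3.52 in healthy-skin LECs. Only healthy-skin replicate 2 stood apart there, and the 4 probe sets differed by -0.79 to 0.27. E2f1, the transcription factor that starts the S phase programme, had 4.87, 6.41 and 4.56 against 4.56, 4.62 and 5.25, a difference of 0.48 that was -0.09 without tumour replicate 2.

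Probe sets of the same gene often gave different signs. Of 21 genes with more than 1 probe set, 16 had differences of both signs. With the probe sets below background on every array left aside, 17 genes had more than 1 and 9 of them had both signs, namely Cdc20, Cenpa, E2f1, Mcm2, Mcm3, Mcm6, Rrm2, Top2a and Tpx2. For these 9 no direction can be read from a single probe set. Of the 68 probe sets, 15 were below background on all 6 arrays.

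**Figure D3:**
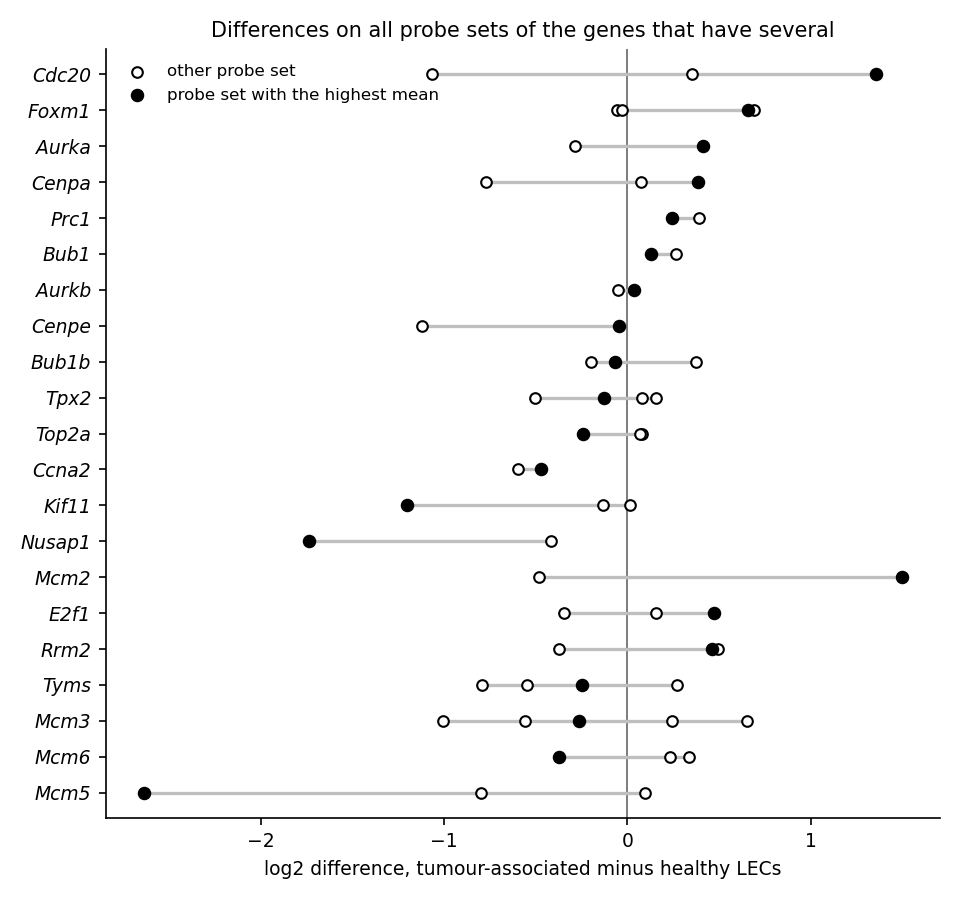
Differences (x axis, log2, tumour-associated minus healthy-skin LECs) on every probe set of the 21 cell cycle genes that have more than 1. Filled points are the probe sets with the highest mean, open points the others. For 16 genes the points fall on both sides of 0.

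Other genes of the cell cycle, taken by list, did not pass the test either. Of 25 measured replication genes outside the 30, such as the origin licensing factors, 8 had positive and 17 negative differences, with a median of -0.17 and 0 called. Gins1, a subunit of the GINS helicase complex, had 2.07, 2.85 and 3.23 in tumour-associated LECs against 4.65, 3.72 and 4.33 in healthy-skin LECs. The tumour arrays were all below background and the healthy arrays all above, so that Gins1 signal in tumour-associated LECs was at least 1.56-fold lower (limma adjusted p = 0.592). Without healthy-skin replicate 1 this bound was 1.35-fold. Its other probe set, below background on every array, differed by -0.29. Of 33 other mitosis genes 13 were positive and 20 negative, with a median of -0.08 and 0 called. Pttg1, the gene of securin, which inhibits the protease separase until anaphase, had 4.76, 4.65 and 6.38 in tumour-associated LECs against 7.43, 6.75 and 7.59 in healthy-skin LECs. Its groups did not overlap, with a difference of -1.99 (limma adjusted p = 0.583). Differences of -0.30 and 0.63 were found on its other probe sets. Mad2l1, a spindle checkpoint gene, had 4.24, 4.92 and 4.47 against 3.93, 4.02 and 3.06 (difference 0.87, limma adjusted p = 0.786).

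Regulators of the decision to divide gave no call either. A list of 17 genes held G1 cyclins, their kinases, E2F factors and pocket proteins, with Myc, Lin54, Lin9 and Mybl2. Of these 17, 11 were positive and 6 negative, with a median of 0.12 and 0 called. Lin54, the gene of smallest p, had 2.05, 2.23 and 1.97 in tumour-associated LECs against 2.28, 4.06 and 3.71 in healthy-skin LECs. The difference was -1.27 (limma adjusted p = 0.741), with all 3 tumour arrays below background, and its other probe set differed by 0.30. Ccnd2, which encodes cyclin D2, had 8.31, 8.04 and 7.85 in tumour-associated LECs against 8.45, 8.76 and 9.14 in healthy-skin LECs. The groups did not overlap, and all 7 of its probe sets had negative differences, of -0.18 to -1.10 (limma adjusted p = 0.789 on the one with the highest mean). Of 17 inhibitor and quiescence genes, 12 were positive and 5 negative, with a median of 0.16 and 0 called. Foxo1, a factor of quiescent endothelium, had 6.14, 7.01 and 6.21 in tumour-associated LECs against 7.11, 8.13 and 7.12 in healthy-skin LECs on its probe set of highest mean (difference -1.0, limma adjusted p = 0.779). Another of its probe sets, 1416982_at, named because it went the other way, had 4.84, 4.46 and 4.09 against 2.76, 2.82 and 2.56. Its difference was 1.75 (limma adjusted p = 0.312). The remaining Foxo1 probe sets, 1416981_at and 1456529_at, differed by -0.29 and 0.69, so no common direction can be read for Foxo1. Cdkn1a, which encodes the inhibitor p21, had 5.86, 8.75 and 6.12 against 6.84, 4.50 and 6.82 on its probe set of highest mean. On that probe set it was highest in tumour replicate 2, as the average of the 8 replication genes was. Its other probe set, 1421679_a_at, had 6.13, 4.37 and 5.22 against 4.90, 4.85 and 4.71, and tumour replicate 2 was the lowest array there. No common pattern can thus be read for Cdkn1a. Cdkn1a was named after its values were seen.

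**Figure D4:**
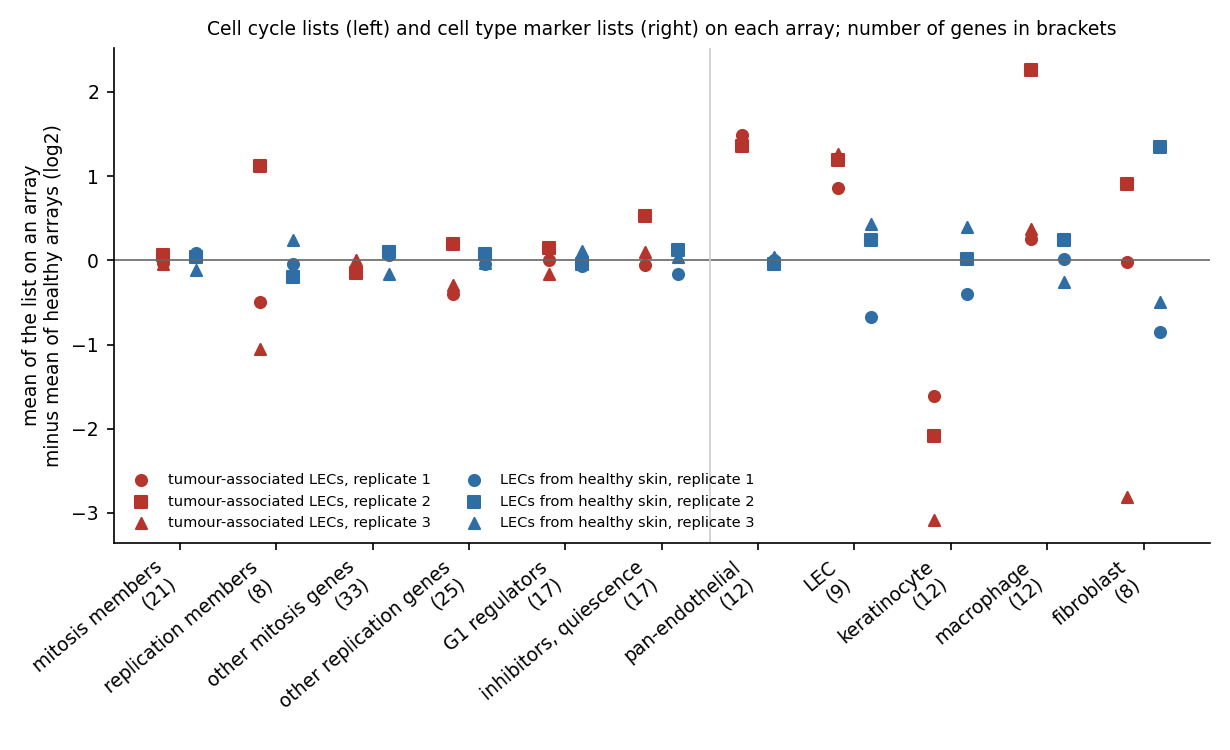
Mean of each gene list on each array minus its mean on the healthy arrays (y axis, log2), with cell cycle lists on the left and cell type marker lists on the right. Red symbols are tumour-associated LECs, blue symbols healthy-skin LECs, and the shape gives the replicate. The mitosis lists stay near 0 on all arrays, and the replication members spread from -1.06 to 1.12 in tumour-associated LECs. The pan-endothelial and keratinocyte lists in tumour-associated LECs, like the macrophage list in tumour replicate 2, stand further from 0. The LEC list lies at 0.86, 1.20 and 1.26 in tumour replicates 1, 2 and 3 and at -0.67, 0.24 and 0.43 in the healthy ones. The fibroblast list runs from -2.81 in tumour replicate 3 to 1.34 in healthy-skin replicate 2.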

How the data were processed

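The authors deposited probe set intensity values on a linear scale for 6 mouse Affymetrix arrays, 1 per sample. The submitters' processing notes name RMA, which corrects background, normalizes between arrays and summarises probes. The version, like the probe set definition, is not given in the sources used here. Values were taken to log2 with no pseudocount, and all but the 64 control probe sets were tested. Of the probe sets tested, 34945 had 1 symbol in the platform annotation, and genes were named from them alone. Each gene is given by its probe set of highest mean over the arrays.

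limma 3.58.1 (R 4.3.3; lmFit, eBayes, two-sided) compared the groups without a block, as the labels tie replicate numbers to no animal, litter or day. The p-values were adjusted by Benjamini-Hochberg over all 45037 probe sets, with a threshold of 0.05, and the fit was tested on simulated data. Arrays give signal over background, and their number limits the precision. Alternatives were other scalings, a dim filter, an added constant, a replicate block, array weights, other moderation, other gene summaries and each array left out. The genes, lists and tests were chosen with earlier results of these data known. Values on every array are given for the 8 genes of smallest p, for Mki67, Top2a, Pcna, Cdk1 and Mcm2 and for genes whose probe sets differ in sign, with up to 3 genes of smallest p from each other list. Genes beyond this rule were chosen after their values were seen.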

Additional observations from a re-analysis of the deposited data

How the results depend on the processing

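Of the 68 probe sets of the cell cycle genes (or those of them left by a filter) 0 were called at a limma adjusted p under 0.05 in each of the 13 alternative fits run on probe sets. Their lowest adjusted p over these fits was 0.207, with array weights, against 0.583 as reported, and 2 to 11 of the 68 had an unadjusted p under 0.05. The number called over all probe sets was 2 as reported and with quantile normalization, 0 after centring on array medians, 0 with log2(value + 16), 1 with the trend and robust options, 21 with dim probe sets left out, 22 with array weights and 0 to 23 with 1 array left out. With the replicate number as a block it was 0. Deviations of same-numbered arrays correlated at 0.044, 0.101 and -0.013, and those of unlike-numbered arrays at -0.147 to 0.121. With 3 arrays a group, these values cannot tell whether the numbers pair arrays. The cause of these shifts was not tested, except that dim probe sets left out means fewer tests (22179 probe sets).

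With 1 array left out, the median difference ran from -0.13 to 0.11 for the 29 genes, from -0.095 to 0.15 for the mitosis genes and from -0.32 to 0.54 for the replication genes. With array weights it was 0.093 for the 29 genes, 0.093 for the mitosis genes and -0.083 for the replication genes. Under the other alternatives the medians moved by less than the spread between replicates. Array weights, the trend and robust options and the exclusion of _x_at probe sets were added for the medians after seeing the data. Single genes moved by less than their replicate spread in 397 of 404 comparisons with an alternative. The 7 others were Ccnb2 and Nusap1 with log2(value + 16), and Aurka, Cdc20, Cenpe, Foxm1 and Nusap1 with the mean of all probe sets of a gene. Up to 7 of the 29 changed sign in a fit, none of them a gene whose reported difference was over 0.475 in size. Signal over background limits what can be read: 1 gene was below background on all arrays.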
